A study of Mus musculus with 11 samples.

Results

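Expression of 10 genes of the Notch pathway was examined in the hearts of 11 male mice: 4 receptors (Notch1, Notch2, Notch3 and Notch4), 3 ligands (Dll4, Jag1 and Jag2) and 3 HEY genes (Hey1, Hey2 and Heyl). The genes were chosen by symbol, and each was found by its Ensembl identifier in the table of 22608 genes. CD mice carry a heterozygous germline deletion of the chromosome 5 interval from Gtf2i to Fkbp6, which models the deletion of Williams-Beuren syndrome, and their wild-type littermates (WT) have the interval intact. Both genotypes are on the C57BL/6J background and were used at 8 to 16 weeks of age. The drug was JZL184, an inhibitor of monoacylglycerol lipase, the enzyme that breaks down the endocannabinoid 2-AG. It was injected daily for 10 days at 8 mg/kg, and controls received its vehicle (VEH). WT VEH had 2 mice, and each of WT JZL184, CD VEH and CD JZL184 had 3. The deletion removes many genes at once, so no comparison here isolates a single deleted gene. RNA came from bulk heart tissue, in which fewer cells of a type and less RNA per cell cannot be told apart.

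Notch receptors are transmembrane proteins that are activated by ligands on a neighbouring cell. Cleavage by ADAM proteases and then by gamma-secretase frees the intracellular domain, which enters the nucleus, binds the DNA-binding protein RBPJ and switches on targets such as the HES and HEY repressors. In blood vessels DLL4, NOTCH1 and NOTCH4 act mainly in endothelial cells, where they restrain sprouting and favour arterial identity. NOTCH3 and HEYL are typical of the mural cells around vessels, JAG1 acts between the endothelium and these cells, and HEY2 is also a transcription factor of ventricular cardiomyocytes.

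Total counts were between 69660232 and 92251443 per mouse, of which genes of the mitochondrial genome took 36.4% to 46.6%. This share was 39.4% to 41.2% in WT VEH and 36.4% to 40.1% in CD JZL184, and higher without overlap in WT JZL184 (45% to 46.6%) and CD VEH (43.5% to 44.7%). In the deleted interval, 14 of 14 tested genes had all CD mice below all WT mice, which checks the genotype labels, whereas no measurement here checks the drug labels. Separate mice of a group differed by a chi-square of 22.6 to 125 per gene, and CD VEH mouse A, with the largest distances, had a summed erythroid marker level of 18830 CPM (counts scaled to 1000000 per library after TMM scaling), against 1419 to 5512 CPM in the other 10 mice. Mice are called by the letter their column carries, which is a name and pairs no mice.

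Levels of different genes were compared per kilobase of annotated exon. Over the 11 mice Dll4 had the highest mean level at 5.39 ± 1.205 CPM per kb (SD, n = 11), followed by Notch3 (4.98 CPM per kb), Heyl (4.76 CPM per kb), Notch4 (4.48 CPM per kb), Jag2 (4.07 CPM per kb) and Notch1 (3.12 CPM per kb). Lower levels were found for Hey1 (2.55 CPM per kb), Jag1 (2.01 CPM per kb), Notch2 (1.59 CPM per kb) and Hey2 (0.812 ± 0.124 CPM per kb). The order was not the same in every group, since in WT VEH the mean of Dll4 (3.98 CPM per kb) was below that of Notch3 (4.26 CPM per kb), and in CD JZL184 Dll4 (4.38 CPM per kb) was below Notch3 (4.70 CPM per kb) and Heyl (4.50 CPM per kb). In the order over all mice the ranges of each gene and its next neighbour overlapped, except for Notch2 and Hey2, whose ranges were 1.35 to 1.87 and 0.649 to 1.02 CPM per kb. The exon length joins all annotated isoforms and can exceed that of a single transcript, by an amount that differs between genes. The least expressed gene, Hey2, still had 221 to 389 counts per mouse, so all 10 genes passed the filter on low counts and were tested among 11319 genes.

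Relative to WT VEH, most members that passed the test were higher both in CD hearts on vehicle and in WT hearts on JZL184, while 3 of them were lower with the drug in CD hearts. In CD VEH versus WT VEH, 5 members were higher (Notch1, Notch4, Dll4, Hey1 and Heyl) and Notch2 was lower at an edgeR adjusted p under 0.05. Over all tested genes 15.0% were called higher and 15.4% lower in this comparison. With JZL184 in WT mice 8 members were higher and 0 lower (15.4% and 14.0% of all tested genes), and the exceptions were Notch2 and Hey2. With JZL184 in CD mice 3 were lower (Notch4, Dll4 and Hey1) and Notch2 was higher (17.0% and 16.8%). In CD against WT under JZL184, 7 were lower and 0 higher (20.1% and 18.2%), all but Notch2, Hey2 and Heyl. The median log2 fold-changes of the 10 members in these 4 comparisons were 0.26, 0.43, -0.15 and -0.28, against medians from -0.003 to 0.009 over all tested genes.

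The genotype by JZL184 interaction, the log2 effect of the drug in CD minus that in WT mice, was below 0 and called for 8 members and above 0 and called for Notch2. Of all tested genes 26.2% were called below 0 and 25.3% above 0. The median interaction was -0.54 over the members and -0.007 over all tested genes. The comparisons share groups, WT VEH in particular, and are not independent of each other. The share of mitochondrial counts was ordered over the groups like most of these genes. With mitochondrial genes left out of the fit the members called were again 6, 8, 4 and 7 in the 4 comparisons and 9 in the interaction. Of the 12077 genes then tested, 3510, 3422, 3850 and 4469 were called, and 6101 in the interaction. Such a fit drops rows and rescales the libraries, so it does not address a property of the samples that moves with the groups. The part of the mitochondrial share in the changes was not tested.

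**Figure D1:**
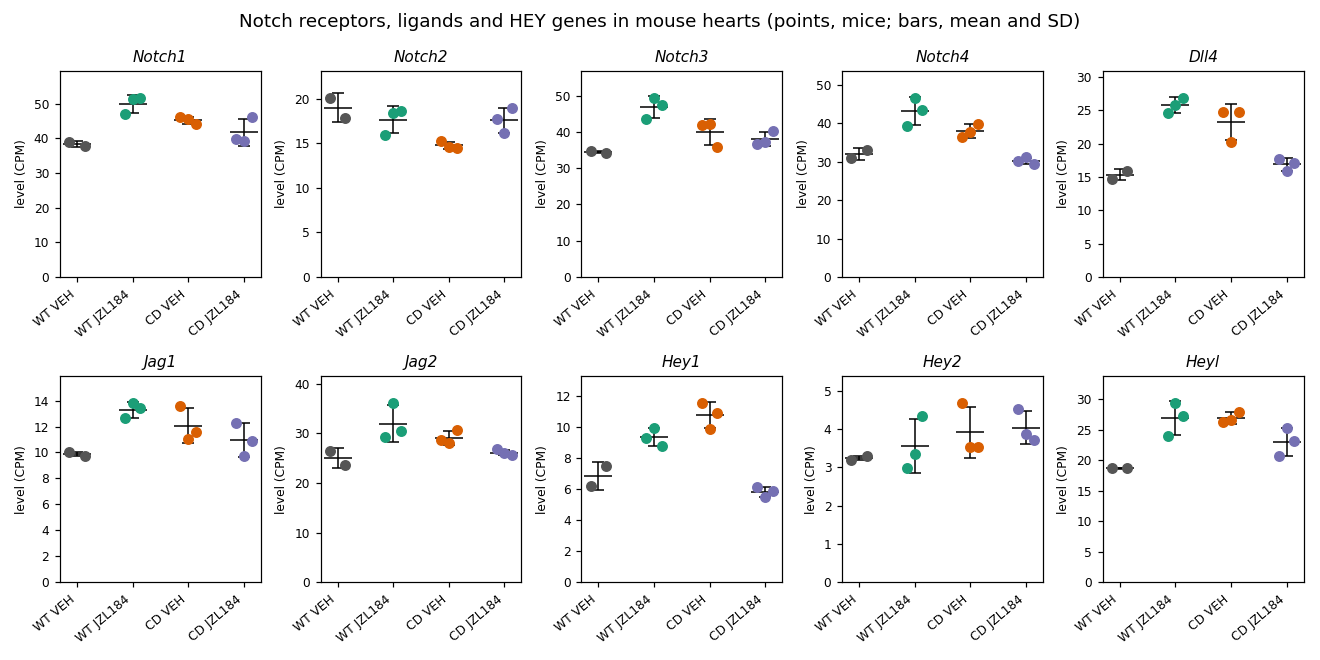
Level of each of the 10 genes in CPM (vertical axis from 0, its range differing between panels) in the 4 groups, with mice as points and the mean and SD as bars. Dll4 lies between 20.2 and 26.9 CPM in the WT JZL184 and CD VEH mice and between 14.7 and 17.8 CPM in the WT VEH and CD JZL184 mice.

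The calls against WT VEH rest on 2 mice. Without WT VEH mouse C, the lone remaining WT VEH mouse being assumed to vary like the other groups, 2 members remained called in CD VEH versus WT VEH (Dll4 and Hey1) and 2 with JZL184 in WT mice (Dll4 and Heyl). In the same fits the calls over all tested genes fell from 3440 to 385 and from 3332 to 558. Without WT VEH mouse D, 4 and 5 members were called, and over all tested genes 1217 and 1031. The interaction was called for 8 or 9 members with any single mouse left out, and for 4579 to 6412 of all tested genes (5828 with all mice). Without CD VEH mouse A, the mouse with the high erythroid level, 5 members were called in CD VEH versus WT VEH, 3 with JZL184 in CD mice and 9 in the interaction, where the calls over all tested genes were 1930, 2098 and 5159.

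Among the receptors, Notch4 (ENSMUSG00000015468.14, chromosome 17, 34564268 to 34588503 in GRCm38, as are the positions of the genes that follow) had the largest interaction. Its level was 30.9 and 33.0 CPM in WT VEH, 39.4, 46.6 and 43.4 CPM in WT JZL184, 36.4, 37.6 and 39.8 CPM in CD VEH, and 30.1, 31.1 and 29.3 CPM in CD JZL184. All WT JZL184 and CD VEH mice lay above all WT VEH and CD JZL184 mice, and the latter 2 groups overlapped. Notch4 was 1.35-fold higher with JZL184 in WT mice (log2 fold-change 0.43, SE 0.08, edgeR adjusted p = 0.00388, or 0.0524 without WT VEH mouse C) and lower with JZL184 in CD mice (log2 fold-change -0.33, SE 0.07, edgeR adjusted p = 0.00526). The interaction was -0.76 (SE 0.10, edgeR adjusted p = 0.000247), that is, the ratio of JZL184 to VEH in CD mice was 0.589 of that in WT mice (95% interval 0.504 to 0.688). In CD VEH versus WT VEH its log2 fold-change was 0.25 (edgeR adjusted p = 0.0307), a call that was lost without either WT VEH mouse, without CD VEH mouse E and with an offset for GC content (edgeR adjusted p up to 0.209 without WT VEH mouse C).

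Notch1 (ENSMUSG00000026923.15, chromosome 2, 26457903 to 26516663), the main endothelial receptor, had 39.0 and 37.8 CPM in WT VEH, 47.0, 51.2 and 51.7 CPM in WT JZL184, 46.2, 45.4 and 44.2 CPM in CD VEH, and 39.8, 39.3 and 46.0 CPM in CD JZL184. CD JZL184 mouse E was as high as the CD VEH mice, and the other CD JZL184 mice were just above WT VEH. Notch1 was higher with JZL184 in WT mice (log2 fold-change 0.38, SE 0.08, edgeR adjusted p = 0.00636, lost without either WT VEH mouse), and its log2 fold-change in CD mice was -0.12 (SE 0.07, edgeR adjusted p = 0.191), but -0.29 and called with an offset for gene length (edgeR adjusted p = 0.0118). The interaction was -0.50 (SE 0.10, edgeR adjusted p = 0.00213). In CD VEH versus WT VEH the log2 fold-change was 0.24 (edgeR adjusted p = 0.038), and this call was lost with any of the 5 compared mice left out, with log2 fold-changes that stayed between 0.21 and 0.26, and with an offset for GC content (0.17, edgeR adjusted p = 0.0844). With an offset for gene length it was kept and larger (0.43, edgeR adjusted p = 0.00488).

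Notch3 (ENSMUSG00000038146.7, chromosome 17, 32120820 to 32166852), the mural cell receptor, had 34.6 and 34.2 CPM in WT VEH and 43.5, 49.5 and 47.4 CPM in WT JZL184. It had 42.0, 42.3 and 35.7 CPM in CD VEH and 36.6, 37.2 and 40.2 CPM in CD JZL184. The WT JZL184 mice stood above all the others, and the CD VEH and CD JZL184 ranges overlapped. Its log2 fold-change with JZL184 was 0.44 in WT mice (SE 0.09, edgeR adjusted p = 0.00507, and 0.0508 without WT VEH mouse C) and -0.07 in CD mice (SE 0.08, edgeR adjusted p = 0.464). The interaction was -0.52 (SE 0.11, edgeR adjusted p = 0.00298). Notch3 was not called in CD VEH versus WT VEH, but passed when CD VEH mouse E was left out (0.29, edgeR adjusted p = 0.0316), with an offset for gene length (0.31, edgeR adjusted p = 0.0205) and with upper quartile size factors (0.26, edgeR adjusted p = 0.0403).

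Notch2 (ENSMUSG00000027878.11, chromosome 3, 98013527 to 98150361) moved in the opposite direction to the other receptors. It had 20.1 and 17.9 CPM in WT VEH, 15.9, 18.4 and 18.6 CPM in WT JZL184, 15.3, 14.5 and 14.5 CPM in CD VEH, and 17.8, 16.1 and 18.9 CPM in CD JZL184. The CD VEH mice were below all others, and the other 3 groups overlapped. Its log2 fold-change was -0.36 in CD VEH versus WT VEH (SE 0.09, edgeR adjusted p = 0.0131) and 0.25 with JZL184 in CD mice (SE 0.08, edgeR adjusted p = 0.0312), while its interaction was 0.36 (SE 0.12, edgeR adjusted p = 0.0268). The first was lost without WT VEH mouse C, the second without any single CD VEH mouse or without CD JZL184 mouse A or E, and the interaction without any of CD JZL184 mice A and E, CD VEH mouse E and WT VEH mouse C. With an offset for gene length the interaction of Notch2 was 0.12 (edgeR adjusted p = 0.374) and the log2 fold-changes were -0.22 and 0.13, none of them called, and with upper quartile scaling the interaction was 0.29 and the effect of JZL184 in CD mice 0.23, also uncalled.

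**Figure D2:**
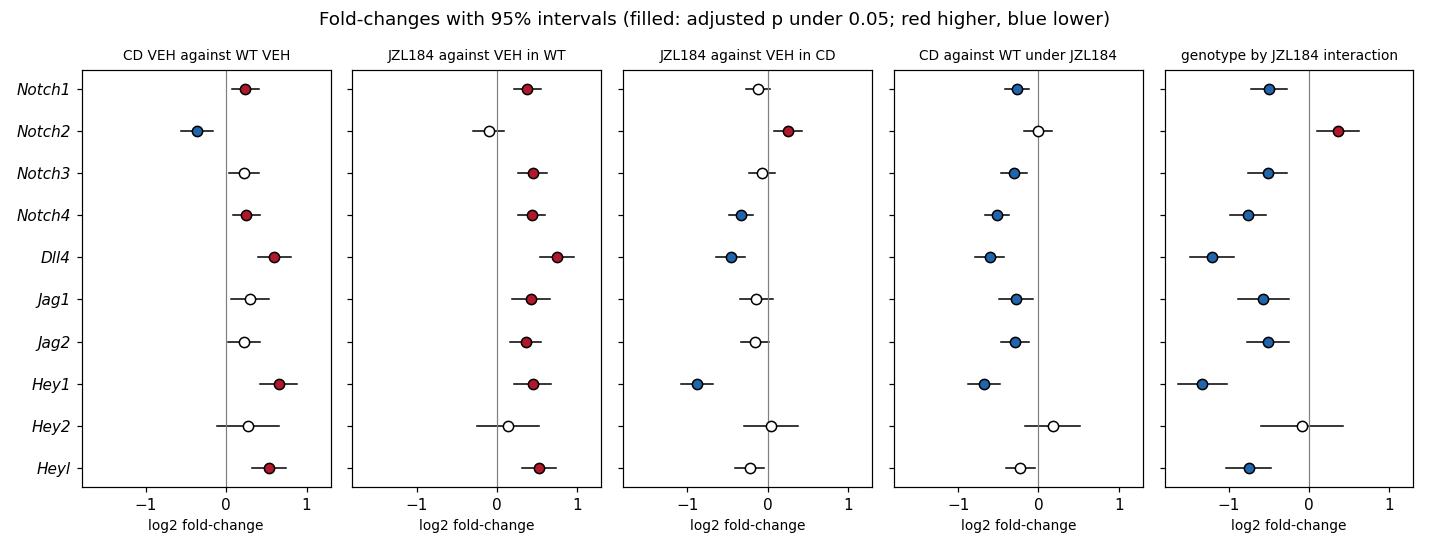
Log2 fold-change of the 10 genes (horizontal axis) in 4 comparisons and the genotype by JZL184 interaction, with points for estimates and lines for 95% intervals, filled where the edgeR adjusted p is under 0.05 (red higher, blue lower). In the interaction panel 8 genes are filled below 0, from -1.33 (Hey1) to -0.50 (Notch1), Notch2 is filled above 0 and Hey2 is open near 0.

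Dll4 (ENSMUSG00000027314.6, chromosome 2, 119325784 to 119335962), the ligand of endothelial tip and arterial cells, had the largest response among the ligands. It had 14.7 and 15.9 CPM in WT VEH and 24.6, 25.8 and 26.9 CPM in WT JZL184. In CD mice it had 24.8, 20.2 and 24.7 CPM on VEH and 17.8, 15.9 and 17.0 CPM on JZL184. Every WT JZL184 and CD VEH mouse was above every WT VEH and CD JZL184 mouse. Dll4 was 1.51-fold higher in CD VEH than in WT VEH (0.60 on the log2 scale, SE 0.10, edgeR adjusted p = 0.00306) and 1.68-fold higher with JZL184 in WT mice (log2 fold-change 0.75, SE 0.10, edgeR adjusted p = 0.00126). With JZL184 in CD mice it fell by 0.46 on the log2 scale (SE 0.08, edgeR adjusted p = 0.00336), and under JZL184 it was 0.61 lower on that scale in CD than in WT mice (log2 fold-change -0.61, SE 0.08, edgeR adjusted p = 0.000786). The interaction was -1.21 (SE 0.13, edgeR adjusted p = 0.00011), so that the ratio of JZL184 to VEH in CD mice was 0.433 of that in WT mice (95% interval 0.358 to 0.524). All 5 calls of Dll4 held in each alternative that was run, including fits with a lone WT VEH mouse. Its interaction stayed between -1.29 and -1.11. The log2 fold-change stayed between 0.544 and 0.685 in CD VEH versus WT VEH and between 0.686 and 0.803 with JZL184 in WT mice. The other calls came nearer to the threshold than the interaction, for example at an edgeR or DESeq2 adjusted p of up to 0.0201 with JZL184 in CD mice.

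Jag1 (ENSMUSG00000027276.7, chromosome 2, 137081456 to 137116644) had 10.01 and 9.75 CPM in WT VEH, 12.6, 13.8 and 13.5 CPM in WT JZL184, 13.6, 11.1 and 11.6 CPM in CD VEH, and 12.3, 9.70 and 10.9 CPM in CD JZL184. The CD VEH and CD JZL184 mice overlapped, and both WT VEH mice were below all WT JZL184 mice. Jag2 (ENSMUSG00000002799.5, chromosome 12, 112907819 to 112929776), another ligand of the Jagged family, had 26.4 and 23.5 CPM in WT VEH, 29.2, 36.1 and 30.5 CPM in WT JZL184, 28.7, 28.0 and 30.6 CPM in CD VEH, and 26.8, 26.0 and 25.6 CPM in CD JZL184. Jag1 and Jag2 were higher with JZL184 in WT mice (log2 fold-changes 0.43 and 0.36, edgeR adjusted p = 0.0141 and 0.0148), and both calls were lost without either WT VEH mouse, and that of Jag2 also with the compared groups alone (edgeR adjusted p = 0.0566). Under JZL184 their log2 fold-changes in CD against WT mice were -0.28 and -0.29 (edgeR adjusted p = 0.0358 and 0.0151), calls that were lost without CD JZL184 mouse E or WT JZL184 mouse B and, for Jag1, also without CD JZL184 mouse C or WT JZL184 mouse D, with the compared groups alone (edgeR adjusted p = 0.0539) and without a filter on low counts (0.0525). Their log2 fold-changes in CD VEH versus WT VEH were 0.29 and 0.22 (edgeR adjusted p = 0.0602 and 0.0816), and with JZL184 in CD mice -0.14 and -0.16 (edgeR adjusted p = 0.264 and 0.152). Jag1 passed the test in CD VEH versus WT VEH with upper quartile size factors (edgeR adjusted p = 0.0405), with the compared groups alone (0.0488), with an offset for gene length (0.0493) or GC content (0.0497) and without CD VEH mouse C (0.0442), and Jag2 with an offset for gene length (0.0433). With JZL184 in CD mice Jag2 passed with the compared groups alone (edgeR adjusted p = 0.0443). The interaction was -0.57 for Jag1 (SE 0.14, edgeR adjusted p = 0.00645) and -0.51 for Jag2 (SE 0.12, edgeR adjusted p = 0.00462). Dll4 alone among the ligands was called in all 5 comparisons.

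The 3 HEY genes encode related transcriptional repressors, and their changes were not tested against each other. Hey1 (ENSMUSG00000040289.8, chromosome 3, 8663359 to 8667256) had 6.199 and 7.49 CPM in WT VEH, 9.26, 9.95 and 8.79 CPM in WT JZL184, 11.6, 9.88 and 10.9 CPM in CD VEH, and 6.12, 5.48 and 5.89 CPM in CD JZL184. The CD JZL184 mice were the lowest of all 11, just below WT VEH, and the CD VEH and WT JZL184 mice were above all the others. Hey1 was 1.57-fold higher in CD VEH than in WT VEH (0.65 on the log2 scale, SE 0.10, edgeR adjusted p = 0.00306). With JZL184 it fell by 0.89 on the log2 scale in CD mice (SE 0.09, edgeR adjusted p = 0.00201) and rose in WT mice (log2 fold-change 0.45, SE 0.10, edgeR adjusted p = 0.0105, lost without WT VEH mouse C at an edgeR adjusted p of 0.119). Its interaction of -1.33 (SE 0.14, edgeR adjusted p = 0.00011) was the largest of the 10 genes, and the ratio of JZL184 to VEH in CD mice was 0.398 of that in WT mice (95% interval 0.322 to 0.491).

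Heyl (ENSMUSG00000032744.4, chromosome 4, 123233556 to 123249875) had 18.6 and 18.7 CPM in WT VEH, 24.0, 29.4 and 27.3 CPM in WT JZL184, 26.2, 26.5 and 28.0 CPM in CD VEH, and 20.6, 25.2 and 23.1 CPM in CD JZL184. The CD JZL184 mice lay above WT VEH and below CD VEH without overlap. Heyl was 1.44-fold higher both in CD VEH than in WT VEH (by 0.53 on the log2 scale, SE 0.10, edgeR adjusted p = 0.00457) and with JZL184 in WT mice (log2 fold-change 0.53, SE 0.10, edgeR adjusted p = 0.00444). The former call was lost without WT VEH mouse C (log2 fold-change 0.52, edgeR adjusted p = 0.0525). Its log2 fold-change with JZL184 in CD mice was -0.23 (SE 0.09, edgeR adjusted p = 0.0589), which passed the test by DESeq2 (adjusted p = 0.0497), with upper quartile size factors (0.0439), with an offset for GC content (0.0255), with the compared groups alone (0.0378) and without CD JZL184 mouse C (0.032). In CD against WT under JZL184 it was not called, but passed by DESeq2 (adjusted p = 0.0409), with upper quartile size factors (0.0414), with an offset for GC content (0.0292), and without CD JZL184 mouse C (0.0278) or WT JZL184 mouse A (0.0112). Its interaction was -0.75 (SE 0.13, edgeR adjusted p = 0.000758).

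Hey2 (ENSMUSG00000019789.8, chromosome 10, 30832359 to 30842801) was called in none of the 5 comparisons by edgeR, at an unadjusted p from 0.154 to 0.772, nor by DESeq2. It had 3.20 and 3.29 CPM in WT VEH, 2.98, 3.35 and 4.35 CPM in WT JZL184, 4.69, 3.53 and 3.52 CPM in CD VEH, and 4.53, 3.87 and 3.72 CPM in CD JZL184. Both WT VEH mice were below all CD mice, and the other groups overlapped. The interaction of Hey2 was -0.09, with a 95% interval from -0.61 to 0.42 on the log2 scale that overlaps the interval of Heyl (-1.03 to -0.47). Its SE of 0.24 was the largest among the members.

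Groups were also set side by side by whether their mice overlapped in CPM. CD JZL184 and WT VEH did not overlap for 5 of the 10 members, with Notch1, Notch3, Hey2 and Heyl above and Hey1 below WT VEH, where 36.6% of all tested genes did not overlap. CD VEH and WT JZL184 did not overlap for 3 members, all lower in CD VEH (Notch1, Notch2 and Notch3), against 12.1% of all tested genes. CD VEH and WT VEH did not overlap for any of the 10 members (9 above, Notch2 below), where the share over all tested genes was 64.0%. The groups did not overlap for 8 members between WT JZL184 and WT VEH (all above, 54.7% of tested genes), for 6 between CD JZL184 and CD VEH (1 above and 5 below, 54.6%) and for 7 between CD JZL184 and WT JZL184 (all below, 47.9%).

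The start site regions of the members were searched for the letters that RBPJ binds, because the members include both parts of the pathway and its targets. RefSeq promoter windows of GRCm38.p6, with 250 bases before and 50 after the start, were given for 8 of the 10 members (not for Hey1 and Heyl). The RBPJ letters GTGGGAA, on either strand, were found in 6.38% of 32851 windows and in 1 of the 8 member windows, that of Hey2, which holds 2 copies. The shorter TGGGAA, which is contained in the former, was in 25.6% of windows and again in that of Hey2 only. The E-box CACGTG, the letters of many basic helix-loop-helix factors, was in 7.15% of windows and in 0 of 8, and the general form CANNTG, which includes it, was in 72.3% of windows and in 3 of 8 (Notch4, Jag1 and Hey2). The sequences of Hey2 (chr10:30842778-30843033, minus strand), which did not pass the test, and of Dll4 (chr2:119325534-119325789, plus strand), which passed it in all comparisons, are shown 5′ to 3′ from 250 bases before the start to 6 after it, with the RBPJ letters of either strand in capitals.
Hey2: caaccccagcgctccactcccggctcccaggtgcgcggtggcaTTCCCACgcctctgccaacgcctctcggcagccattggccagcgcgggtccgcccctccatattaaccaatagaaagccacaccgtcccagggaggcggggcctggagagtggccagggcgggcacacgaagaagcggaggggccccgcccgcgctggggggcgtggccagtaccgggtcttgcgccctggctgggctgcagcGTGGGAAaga
Dll4: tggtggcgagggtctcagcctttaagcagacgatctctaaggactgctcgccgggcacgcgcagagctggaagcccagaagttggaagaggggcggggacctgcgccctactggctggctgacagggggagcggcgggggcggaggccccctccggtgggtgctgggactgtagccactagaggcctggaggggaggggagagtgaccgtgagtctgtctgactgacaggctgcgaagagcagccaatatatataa
The copies in the Hey2 window begin 207 and 4 bases before the start, the former on the opposite strand, and the Dll4 window has none in these bases. A match is a description of letters and does not show binding.

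A list of 46 other Notch pathway genes gave the wider picture, of which 40 were tested (Dll3, Dlk1, Dlk2, Dner, Dtx1 and Hes5 were below the filter). In CD VEH versus WT VEH 9 were higher and 3 lower, where the shares over all tested genes were 15.0% and 15.4%. With JZL184 in WT mice 13 were higher and 1 lower (15.4% and 14.0% of all tested genes), and with JZL184 in CD mice 5 were higher and 10 lower (16.8% and 17.0%). In CD against WT under JZL184, 3 were higher and 13 lower (18.2% and 20.1%), and in the interaction 6 were called above and 15 below 0 (25.3% and 26.2%). These counts, and those by role that follow, are of genes at an edgeR adjusted p under 0.05, and the percentages are the shares of all tested genes called in the same direction. The median log2 fold-change of the list was 0.08 in CD VEH versus WT VEH and -0.08 in the interaction, against 0.009 and -0.007 over all tested genes.

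Targets outside the HEY family included the largest interaction of this list. Nrarp, which encodes a feedback inhibitor that destabilises the Notch intracellular domain, had 6.58 and 7.16 CPM in WT VEH, 10.2, 13.4 and 12.7 CPM in WT JZL184, 13.2, 11.4 and 12.8 CPM in CD VEH, and 7.25, 7.57 and 7.75 CPM in CD JZL184. Every WT JZL184 and CD VEH mouse was above every WT VEH and CD JZL184 mouse. Nrarp had log2 fold-changes of 0.86 in CD VEH versus WT VEH (edgeR adjusted p = 0.00173), 0.81 with JZL184 in WT mice (edgeR adjusted p = 0.0017) and -0.73 with JZL184 in CD mice (edgeR adjusted p = 0.00201), and an interaction of -1.54 (SE 0.15, edgeR adjusted p = 8.93e-05).

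Hes1, a repressor and direct Notch target, had 6.66 and 7.91 CPM in WT VEH, 8.65, 13.2 and 10.9 CPM in WT JZL184, 13.1, 9.21 and 12.5 CPM in CD VEH, and 7.39, 8.91 and 7.28 CPM in CD JZL184. Its spread within groups was wide, and its interaction was -1.15 (SE 0.25, edgeR adjusted p = 0.00275). Efnb2, which encodes the arterial ligand ephrin-B2, had 13.2 and 14.4 CPM in WT VEH, 19.1 to 22.3 CPM in WT JZL184, 19.0 to 20.5 CPM in CD VEH and 15.4 to 16.7 CPM in CD JZL184, with an interaction of -0.89 (SE 0.11, edgeR adjusted p = 0.000165). Efnb2 in CD JZL184 mice lay between WT VEH and CD VEH. Hes6, which encodes a HES relative that antagonises Hes1, was called in none of the comparisons by edgeR (unadjusted p from 0.2 to 0.78), with an interaction of -0.09 (SE 0.13). With an offset for gene length the latter was 0.25 (edgeR adjusted p = 0.115). Hes5 had 1 to 5 counts per mouse and was not tested.

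Genes that modify or transmit the signal were counted by role, and no role was tested against another. Of 5 glycosylation genes 3 were called below and 0 above 0 in the interaction, in which 26.2% of all tested genes were called below and 25.3% above 0. Mfng, a Fringe enzyme that extends sugars on Notch receptors and so alters their choice of ligand, was among them (-1.21, SE 0.17, edgeR adjusted p = 0.000308), with 6.38 to 6.59 CPM in WT VEH, 9.44 to 13 CPM in WT JZL184, 9.45 to 10.97 CPM in CD VEH and 6.86 to 7.77 CPM in CD JZL184. Poglut1, which adds glucose to the receptors, had an interaction of -0.51 (edgeR adjusted p = 0.00263). The ligand Dll1 was higher in CD VEH than in WT VEH (log2 fold-change 0.45, edgeR adjusted p = 0.0272, lost without either WT VEH mouse or CD VEH mouse A or E) and had an interaction of -0.79 (edgeR adjusted p = 0.00329). Of 9 tested genes of ligand and receptor trafficking 5 were called below and 1 above 0 in the interaction, beside the same 26.2% and 25.3%, among the former Dtx4, which encodes a ubiquitin ligase (-0.74, edgeR adjusted p = 0.00117).

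Of 9 genes of receptor cleavage 1 was called above and 1 below 0 in the interaction (25.3% and 26.2% of all tested genes), the latter being Psenen (-0.43, edgeR adjusted p = 0.00326), a subunit of gamma-secretase. With an offset for gene length the interaction of Psenen was 0.03 (edgeR adjusted p = 0.781). Of 7 genes of the nuclear complex 2 were called above and 1 below 0 in the interaction (25.3% and 26.2%), and 0 were called in CD VEH versus WT VEH (15.0% higher and 15.4% lower). Rbpj, the DNA-binding partner of all 4 receptors, had 27.6 to 31.4 CPM over the 11 mice, overlapped between all groups and had an interaction of -0.01 (SE 0.09, 95% interval from -0.21 to 0.18), but -0.30 and called with an offset for gene length (edgeR adjusted p = 0.0144). Of 5 nuclear repressors 2 were called above and 1 below 0 in the interaction (25.3% and 26.2%), the latter being Hdac1, a histone deacetylase (-0.54, edgeR adjusted p = 0.00186).

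**Figure D3:**
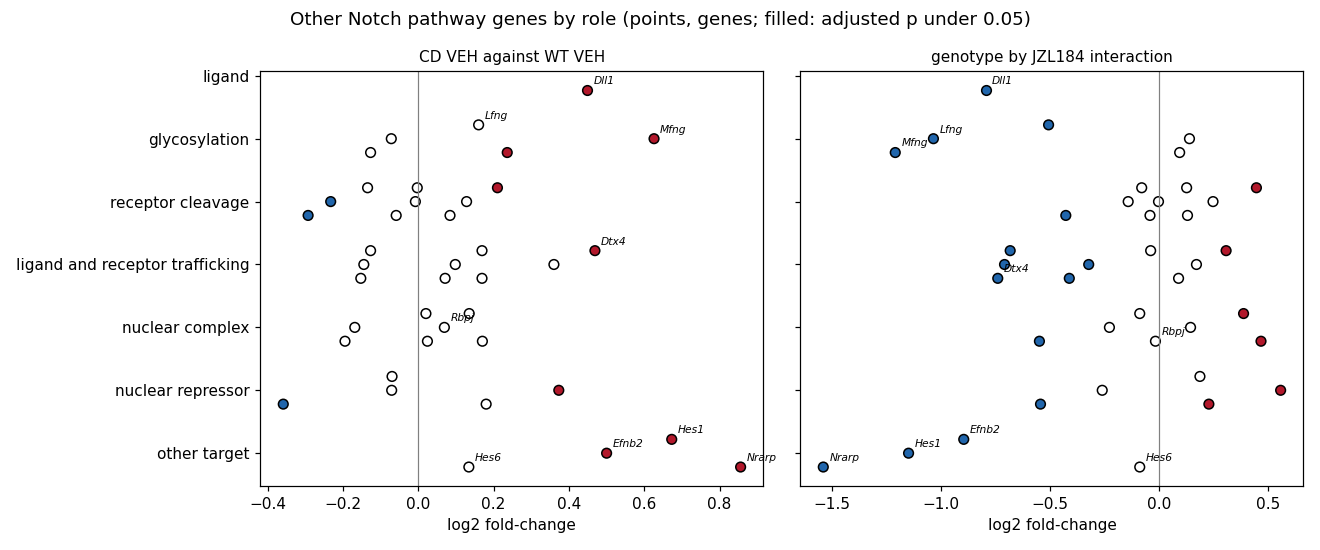
Log2 fold-change (horizontal axis) of the 40 tested other Notch pathway genes by role (vertical axis) in CD VEH versus WT VEH and in the genotype by JZL184 interaction, with genes as points, filled where the edgeR adjusted p is under 0.05 (red higher, blue lower). In the interaction Nrarp (-1.54), Mfng (-1.21) and Hes1 (-1.15) lie lowest, and Rbpj lies at -0.01.

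Most markers of vascular cells and of macrophages moved with the members, and no marker of any list was at 0 in all mice. The summed level of 10 endothelial markers (such as Pecam1, Cdh5 and Kdr) was 701.5 to 713.5 CPM in WT VEH, 1048 to 1117 CPM in WT JZL184, 896.1 to 973.2 CPM in CD VEH and 670.2 to 793.7 CPM in CD JZL184. In CD VEH versus WT VEH 8 of the 10 were higher (15.0% of all tested genes), with JZL184 in WT mice 10 were higher (15.4%), with JZL184 in CD mice 9 were lower (17.0%), and in the interaction 10 were called below 0 (26.2%), with a median of -0.97. The sums of the pericyte markers (6 genes) were 851.2 to 855.7 CPM in WT VEH, 1051 to 1102 CPM in WT JZL184, 956.1 to 1112 CPM in CD VEH and 810.9 to 852.3 CPM in CD JZL184. In CD VEH versus WT VEH 4 pericyte markers were called higher and Abcc9 lower (15.0% and 15.4% of all tested genes). In the interaction 4 were called below 0 and Abcc9 above 0 (0.59, edgeR adjusted p = 0.00386). Arterial markers (5 genes) had sums of 33.3 to 35.9, 48.0 to 65.4, 42.8 to 47.5 and 34.8 to 36.4 CPM in the same order. Macrophage markers (6 genes) had sums of 130.1 to 133.9, 162.8 to 266.1, 173.4 to 215.3 and 117.2 to 135.6 CPM in the same order. All 6 were called below 0 in the interaction (26.2% of all tested genes), with a median of -1.36. Fibroblast markers (6 genes) had sums of 642.6 to 663.9, 792.3 to 984.6, 765.5 to 886.5 and 597.9 to 688.7 CPM. Of these, 4 were called below and 0 above 0 in the interaction (26.2% and 25.3%). Dcn was the largest part of the fibroblast sum, and Col1a1 had group means of 53.7, 49.9, 53.6 and 55.5 CPM in that order.

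The sums of other lists were ordered differently or overlapped between WT JZL184 or CD VEH and the remaining groups. Cardiomyocyte markers (7 genes) had sums of 38460 to 39790 CPM in WT VEH, 28420 to 37750 CPM in WT JZL184, 33130 to 35940 CPM in CD VEH and 37430 to 38930 CPM in CD JZL184. Myh6 was the largest part of that sum, and the genes of the list did not all move one way. With JZL184 in CD mice 3 were called higher and 1, Myl2, lower (16.8% and 17.0% of all tested genes), and in the interaction 4 were called above 0 and Myl2 below 0 (-0.51, edgeR adjusted p = 0.0117). The interaction of Tnni3 was -0.31 (edgeR adjusted p = 0.0698). Smooth muscle markers (6 genes) had sums of 206.6 to 216.2, 227.8 to 264.0, 200.5 to 207.2 and 178.4 to 187.8 CPM in that group order. Most of that sum came from Smtn and Acta2, and gene by gene most of the 5 tested smooth muscle markers moved as the endothelial ones did. Of these, 3 were called higher and 1 lower in CD VEH versus WT VEH (15.0% and 15.4% of all tested genes), with JZL184 in WT mice again 3 and 1 (15.4% and 14.0%), and with JZL184 in CD mice 1 was called higher and 3 lower (16.8% and 17.0%). In the interaction 4 were called below 0, among them Myl9 (-2.03), and Smtn above 0 (0.73), with a median of -1.94 (edgeR, beside 26.2% and 25.3% of all tested genes). Endocardial markers (Npr3 and Nfatc1) had sums of 25.2 to 26.8, 19.3 to 32.7, 23.6 to 31.1 and 19.3 to 25.2 CPM in that order, overlapping between groups except that the CD JZL184 mice lay below both WT VEH mice. Erythroid markers (5 genes) had sums of 2034 to 2494 CPM in WT VEH, 2643 to 5512 CPM in WT JZL184, 2032 to 18830 CPM in CD VEH and 1419 to 2195 CPM in CD JZL184, and the highest of the CD VEH mice was mouse A. All 5 were called lower by edgeR with JZL184 in CD mice (17.0% of all tested genes) and below 0 in the interaction (26.2%, median -2.94). The sum of CD VEH mouse C was 2885 CPM, and that of mouse E, 2032 CPM, lay within the CD JZL184 range. The erythroid calls were not refitted without mouse A. Of 4 atrial markers 3 were below the filter, as were all 4 adipocyte markers. The part of cell type markers in the changes of the Notch genes was not tested.

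**Figure D4:**
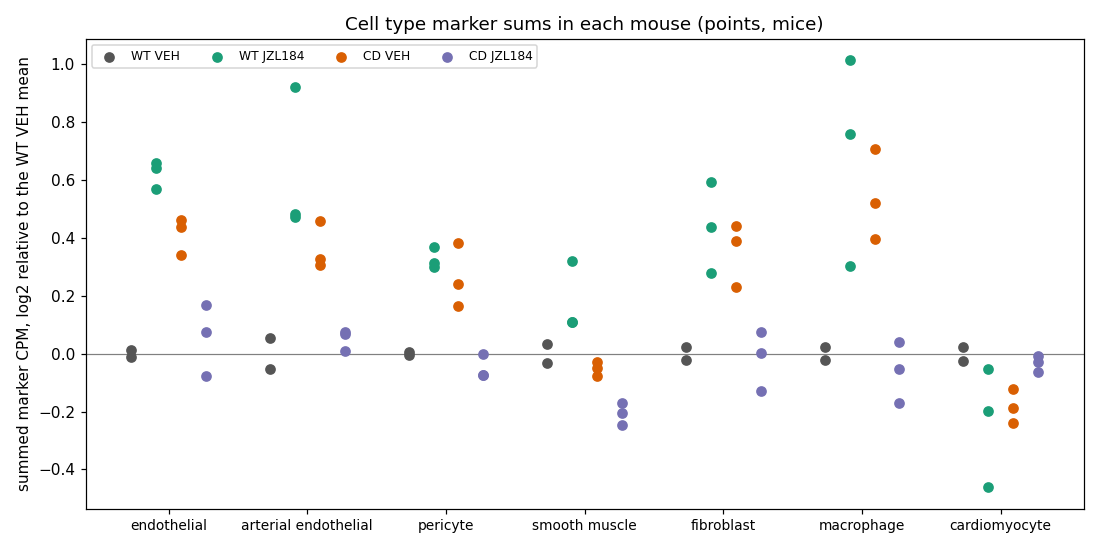
Summed CPM of cell type markers in each mouse, as the log2 ratio to the WT VEH mean (vertical axis), for 7 marker lists (horizontal axis) and 4 groups (colours). The endothelial sums of the WT JZL184 and CD VEH mice lie above those of all WT VEH and CD JZL184 mice, and the cardiomyocyte sums of the CD VEH mice lie below them.

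Expressed as a percentage of the endothelial marker sum of the same mouse, the members differed in how far the groups stood apart. This is a description chosen after the data were seen, with no test and no share over all tested genes. The sum was lower in WT VEH and CD JZL184 than in WT JZL184 and CD VEH. A gene that does not follow it changes in this ratio through the denominator alone. That limit bears on Notch3, Heyl and Hey2, placed above in mural cells or cardiomyocytes. Dll4 was 2.10% to 2.23% of that sum in WT VEH, 2.31% to 2.44% in WT JZL184, 2.25% to 2.58% in CD VEH and 2.0% to 2.65% in CD JZL184, so the CD groups overlapped. Notch4 was 4.40% to 4.63%, 3.76% to 4.17%, 3.74% to 4.20% and 3.92% to 4.49% in the same order. For Hey1 the CD groups did not overlap, with 1.10% to 1.19% in CD VEH and 0.691% to 0.914% in CD JZL184. Hey1 was 0.884% to 1.05% in WT VEH and 0.798% to 0.891% in WT JZL184. Heyl was 2.62% to 2.66%, 2.29% to 2.63%, 2.69% to 2.96% and 3.08% to 3.18%, highest in CD JZL184. Notch2 was 2.50% to 2.87% in WT VEH and 2.03% to 2.65% in CD JZL184, above its 1.52% to 1.69% in WT JZL184 and 1.52% to 1.62% in CD VEH. Hey2, which was called in no comparison, was 0.456% to 0.461% in WT VEH, 0.285% to 0.395% in WT JZL184, 0.368% to 0.482% in CD VEH and 0.488% to 0.676% in CD JZL184, so that here the CD JZL184 mice were above all others. The means of Notch1, Notch3, Jag1 and Jag2 were higher in WT VEH and CD JZL184 than in WT JZL184 and CD VEH.

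The pattern of each member over the 11 mice was compared with those of all tested genes outside the lists, by the root mean square difference of log2 CPM centred on each gene's mean. The nearest genes to Dll4 were Fli1, an ETS factor of endothelial and blood cells, and Spidr (0.07 and 0.09, where the SD of Dll4 itself was 0.33). Notch4 was nearest to Rapgef3 and Kctd10 (both 0.06, SD of Notch4 0.23), Notch1 to 2900026A02Rik and Kdsr (0.04 and 0.06, SD 0.16), and Notch3 to Prag1 and Lpcat1 (0.05 and 0.06, SD 0.18). Heyl was nearest to Map3k11 and Triobp (0.04 and 0.05, SD 0.23), Jag2 to Abi1 and Elf4 (both 0.06, SD 0.17), and Notch2 to Myo9b and Hmbox1 (0.05 and 0.06, SD 0.16). Jag1 was nearest to Ankrd44 and Dennd2c (both 0.08, SD 0.19) and Hey1 to 1810022K09Rik and Zfp984 (0.10 and 0.11, SD 0.39). Hey2 had its nearest genes in Zfp810 and Cecr2, at distances (0.10 and 0.11) that were large beside its own SD of 0.21. The points share libraries and scaling, and the likeness is a description.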

How the data were processed

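Heart RNA of 11 mice was measured by RNA-seq. Per the labels and the study's methods, the authors estimated transcript abundance with Salmon 0.7.2 (annotation: GRCm38, Ensembl release 85), summed it to genes with tximport 1.2.0 and deposited the estimated counts, not normalized, with 0 columns without a group. Column names hold a group and a letter found in no label, so mice carry no sample number. The treatment field calls the controls untreated, while titles and the methods give vehicle. Each column was taken as a separate mouse, and p-values measure the spread between mice.

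Estimated counts were rounded. Genes whose log2 CPM averaged 1 or more were tested (11319 of 22608) in R 4.3.3 with edgeR 4.0.16 and limma 3.58.1 (TMM, quasi-likelihood test, 4 group means, Benjamini-Hochberg over all tested genes, called at 0.05). Total counts of 69660232 to 92251443 per mouse and a common biological coefficient of variation of 9.13% set the precision, and counts cover counting error only. Symbols, positions and exon lengths came from GENCODE mouse release 21 (GRCm38), which matched 22315 identifiers. Pairs of similar genes may share reads that Salmon divides by estimate. Steps were tested on simulated counts.

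The members, lists and tests were chosen with earlier results of these data known. All members were named, and of the other Notch genes those called in both CD VEH against WT VEH and the interaction, the other targets and Rbpj, except 1 that is not reported here. Levels relative to endothelial markers were added after the data were seen. Alternatives were DESeq2 1.42.0, other scaling, filters, thresholds and samples, and offsets for length and GC content.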

Additional observations from a re-analysis of the deposited data

Results flagged for a closer look

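The effect of JZL184 differed between CD and WT mice, by the interaction term of the edgeR model, for 9 of the 10 members, where 51.5% of all tested genes were called in this term. The log2 effect in CD minus that in WT mice was -0.50 for Notch1, 0.36 for Notch2, -0.52 for Notch3, -0.76 for Notch4, -1.21 for Dll4, -0.57 for Jag1, -0.51 for Jag2, -1.33 for Hey1 and -0.75 for Heyl, at edgeR adjusted p from 0.00011 to 0.0268.

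Of the 40 tested other Notch pathway genes 6 were called above and 15 below 0 in this term, 19 were not called, and 25.3% and 26.2% of all tested genes were called in these directions. Those named in the text were called both in it and in CD VEH against WT VEH, or were Notch targets or Rbpj, so their number and direction carry no weight. The genes called above 0 are not among them. The term was -0.79 for Dll1, -1.21 for Mfng, -0.51 for Poglut1, -0.43 for Psenen, -0.74 for Dtx4, -0.54 for Hdac1, -1.15 for Hes1, -1.54 for Nrarp and -0.89 for Efnb2, at edgeR adjusted p from 8.93e-05 to 0.00329.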

How the results depend on the processing

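The 50 pairs of member and comparison were recomputed in 820 alternative values, of which 731 kept direction and side of the threshold, 55 lost the call, 21 gained a call and 13 changed sign, 0 of them of a called value. At an adjusted p under 0.01, the members called were 3 in CD VEH against WT VEH, 5 with JZL184 in WT mice and 4 in CD against WT under JZL184. With single mice left out, the members called were 2 to 6 in CD VEH against WT VEH and 2 to 8 with JZL184 in WT mice, lowest without WT VEH mouse C. Changes of sign were those of Notch2 in CD against WT under JZL184 (0.013 without a filter, 0.010 with at least 10 counts in every mouse, 0.023 with a GC offset, and -0.073 to 0.056 with single mice left out), of Notch2 with JZL184 in WT mice (0.004 with a length offset), and of Hey2 with single mice left out (-0.043 to 0.202 with JZL184 in CD mice, -0.036 to 0.254 in WT mice and -0.201 to 0.089 in the interaction). The 15 reported values of other Notch genes gave 281 alternatives, of which 266 kept direction and side of the threshold. Changes of sign there were all in the interaction. They were those of Psenen (0.027 with a length offset, its call lost), Hes6 (0.249 with a length offset, 0.027 with a GC offset, and -0.180 to 0.005 with single mice left out) and Rbpj (0.003 with at least 10 counts in every mouse, and -0.079 to 0.049 with single mice left out).

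Calls over all tested genes with JZL184 in WT mice were 3332, and 1652 when the model held the compared groups alone. At an adjusted p under 0.01 they were 1152 in CD VEH against WT VEH (3440 at 0.05), 1553 with JZL184 in CD mice (3831), 1103 in WT mice (3332), 2229 in CD against WT under JZL184 (4331) and 3883 in the interaction (5828). The cause was not tested. No paired analysis was possible because the columns of the table do not carry the replicate numbers of the labels.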
